A study of Mus musculus with 108 samples.

Results

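The genes described are 48 genes of glucose production, amino acid breakdown and the urea cycle in mouse liver, out of 26089 genes with a curated RefSeq transcript on chromosomes 1 to 19 and X. They were taken from a list of gene symbols with no threshold on a measured value, although the list was drawn up with earlier results of these data known, and all 48 were found in the annotation, where Mut is listed as Mmut. Asgr1, the asialoglycoprotein receptor of hepatocytes, is on the list although it is no enzyme or regulator of these pathways. For each gene, the chromatin state of the bin that holds the transcription start site (TSS), of the 21 bins from 2 kb upstream to 2 kb downstream, and of the gene body was read at the longest curated transcript.

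The study profiled H3K4me3, H3K27me3, H3K27ac and H3K4me1 by ChIP-seq in formalin-fixed, paraffin-embedded livers of inbred C57BL/6 female mice. The group SD 3m (standard diet, 3 months of age) had 8 mice and 30 libraries, SD 12m (standard diet, 12 months) had 8 mice and 29 libraries, and CR 12m (30% caloric restriction, 12 months) had 9 mice and 29 libraries. For H3K4me3, the mark of states 1 and 2, these libraries numbered 7, 8 and 5 in that order of groups, and the part of this imbalance in the results was not tested. Per group and mark, the authors pooled the libraries and, with ChromHMM, gave every 200 bp bin of the genome 1 of 8 states. Where no group is named, values below follow the order SD 3m, SD 12m, CR 12m. State 1 is the active TSS state, state 2 flanks the TSS, states 3, 4 and 5 are the active, weak and poised enhancer states (state 4 is also named a further active enhancer state), state 6 carries H3K27me3 only (Polycomb), state 7 has weak H3K4me3 with minimal H3K27me3, and state 8 has none of the 4 marks. As each group has 1 segmentation, a difference between groups could not be set against the spread between mice, no test was possible, and the read depth behind a state is unknown. In whole liver, the makeup of cell types and the chromatin within a cell type cannot be told apart. Of 8 hepatocyte markers, 3, 5 and 4 had the TSS bin in state 1 or 2. None had it in states 6 to 8 in any group, whereas 4 neural markers were in state 6 in all 3 groups. Of 16 markers of cholangiocytes, Kupffer, stellate and sinusoidal endothelial cells, 1, 0 and 1 had the TSS bin in state 1 or 2. States 6 to 8 held 3, 2 and 1 of 4 cholangiocyte markers and 2, 3 and 3 of 4 Kupffer cell markers. They held 3 of 4 stellate cell markers in each group and 1, 2 and 0 of 4 sinusoidal endothelial cell markers. The part of these cell types in the results was not tested.

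In fasting, the liver makes glucose from lactate, glycerol and amino acids and releases it into the blood, under the control of glucagon, which acts through CREB and its coactivators. The amino groups freed when amino acids are broken down are turned into urea by periportal hepatocytes. An active gene carries H3K4me3 and H3K27ac around its TSS, more often downstream than upstream where transcription runs in 1 direction, and promoters poor in CpG dinucleotides are common among genes that mark a tissue.

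The promoters of 5 members are shown because they belong to the genes with the most and the fewest window bins in another state and to Pck1 and G6pc, whose enzymes catalyse an early and the last step of gluconeogenesis. Each line gives the 250 bases before the TSS, 5′ to 3′ on the gene's strand, from RefSeq on GRCm38.p6, the assembly that mm10 represents. Capitals mark CpG dinucleotides and, in G6pc, the letters TATAAA, which end 24 bases before the TSS. The positions are chr2:173152823-173153072 (plus strand) for Pck1, chr11:101367466-101367715 (plus) for G6pc, chr19:30175442-30175691 (minus) for Gldc, chr5:51567726-51567975 (minus) for Ppargc1a and chr14:122484115-122484364 (plus) for Pcca.
Pck1: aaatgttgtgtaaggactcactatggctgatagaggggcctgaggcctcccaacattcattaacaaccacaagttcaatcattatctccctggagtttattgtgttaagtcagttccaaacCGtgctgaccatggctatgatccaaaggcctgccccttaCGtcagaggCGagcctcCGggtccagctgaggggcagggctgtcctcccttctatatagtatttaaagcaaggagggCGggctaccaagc
G6pc: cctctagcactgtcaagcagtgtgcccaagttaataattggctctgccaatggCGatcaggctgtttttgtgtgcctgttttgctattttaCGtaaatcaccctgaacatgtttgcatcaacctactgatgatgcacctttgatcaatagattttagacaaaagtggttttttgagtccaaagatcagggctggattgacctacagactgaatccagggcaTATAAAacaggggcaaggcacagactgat
Gldc: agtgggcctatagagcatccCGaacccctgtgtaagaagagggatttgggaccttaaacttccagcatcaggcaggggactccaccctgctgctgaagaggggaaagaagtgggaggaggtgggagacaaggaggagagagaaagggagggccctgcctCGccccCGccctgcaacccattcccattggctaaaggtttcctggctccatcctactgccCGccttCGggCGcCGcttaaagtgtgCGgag
Ppargc1a: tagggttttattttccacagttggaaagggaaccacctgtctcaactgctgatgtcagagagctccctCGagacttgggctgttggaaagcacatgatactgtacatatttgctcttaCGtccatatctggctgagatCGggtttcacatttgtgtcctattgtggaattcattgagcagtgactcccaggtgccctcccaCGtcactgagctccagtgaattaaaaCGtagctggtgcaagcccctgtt
Pcca: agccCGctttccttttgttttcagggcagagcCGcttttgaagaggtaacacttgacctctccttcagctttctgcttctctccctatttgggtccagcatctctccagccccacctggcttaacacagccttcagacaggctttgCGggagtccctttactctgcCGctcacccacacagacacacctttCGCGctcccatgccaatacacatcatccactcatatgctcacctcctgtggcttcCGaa
The printed stretches hold 5 CpG in Pck1, 2 in G6pc, 8 in Gldc, 5 in Ppargc1a and 7 in Pcca. For Ppargc1a and Pcca the longest curated transcript is a non-coding one that starts 13804 bp and 49963 bp upstream of the coding transcript tagged RefSeq Select, so that the printed promoters are not those of the coding transcripts.

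Most members had a TSS state at the TSS in each group. The TSS bin was in state 1 or 2 in 38 of 48 members (79.2%) in SD 3m, and at 12 months in 36 under SD (75%) and 34 under CR (70.8%). Over all 26089 genes the shares were 40.1%, 34.7% and 30.7%. Enhancer states 3 to 5 held the TSS bin of 8, 10 and 13 members (16.7%, 20.8% and 27.1%, against 18.2%, 23.6% and 28.2% of all genes). States 6 to 8 held that of 2, 2 and 1 (4.17%, 4.17% and 2.08%, against 41.8%, 41.7% and 41.1%). The members outside states 1 to 5 were Pcca in all groups and Ppargc1a in SD 3m and SD 12m, both at the non-coding start.

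Relative to SD 3m, the TSS bin was in another state in 15 members in SD 12m (31.2%, against 32.6% of all genes and 32.4% of the 15190 genes with the TSS bin in states 1 to 5 in SD 3m). In CR 12m it was in another state in 19 members (39.6%, against 34.7% and 39.0%). Between CR 12m and SD 12m it differed in 17 members (35.4%, against 26.7% and 27.8%). The shares of the members thus lay near those of all genes for both comparisons with SD 3m, which share the SD 3m segmentation. The state was the same in all 3 groups in 23 members (47.9%, against 55.4% of all genes), among them Creb1, Gcgr, Ass1, Tat, Cbs and Gnmt in state 1, Crtc2 and Bckdha in state 2 and G6pc and Bhmt in state 3.

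Moves out of the TSS states were mostly moves of a border. Of the 38 members with the TSS bin in state 1 or 2 in SD 3m, 6 had it in another class in SD 12m (15.8%, against 16.5% of the 10449 genes with the TSS bin in state 1 or 2 in SD 3m), namely Pck2, Khk, Slc2a2, Gys2, Arg1 and Prodh2. In 5 of these 6 a stretch of states 1 and 2 was still found within 1 kb, and in 4 it began 1 bin downstream of the TSS bin. Over all genes, a stretch within 1 kb was still found at 72.7% of the TSS bins that left these states in SD 12m and at 68.1% in CR 12m. It began 1 bin downstream at 741 of 1721 such TSS bins in SD 12m and at 1191 of 2711 in CR 12m. In CR 12m, 7 of the 38 had it in another class (18.4%, against 25.9%), namely Slc2a2, Gys2, Fah, Amt, Gcsh, Dbt and Ivd, all 7 with a stretch within 1 kb and 6 with one that began 1 bin downstream. The exception was Pck2, which had no bin of states 1 or 2 within the window in SD 12m.

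Of the 8 members with the TSS bin in states 3 to 5 in SD 3m, 4 had it in state 1 or 2 in SD 12m (50%, against 5.76% of the 4741 genes with the TSS bin in states 3 to 5 in SD 3m), namely Pck1, Fbp1, Hgd and Agxt. In CR 12m, 3 of the 8 did (37.5%, against 4.53%), namely Pck1, Fbp1 and Cth. Fbp1 and Hgd in the first comparison, and Fbp1 and Cth in the other, already had a stretch of states 1 and 2 within 1 kb in SD 3m. Of the hepatocyte markers, 5 had the TSS bin in states 3 to 5 in SD 3m. Apoa1, Fgb and Cyp2e1 of these were in state 1 in SD 12m, and Fgb and Cyp2e1 in CR 12m. Of 67 further genes of the pathways, described below, 17 were in states 3 to 5 in SD 3m. Only Kmo and Kynu of these were in state 1 or 2 in SD 12m, and only Kmo and Sardh in CR 12m. Between the 12-month groups, 5 of 10 members in states 3 to 5 in SD 12m were in state 1 or 2 in CR 12m (50%, against 7.07% of 6169 genes), which were Pck2, Khk, Arg1, Prodh2 and Cth. All but Pck2 of these had a stretch within 1 kb in SD 12m as well. For TSS bins that entered state 1 or 2, stretches held beforehand were not counted over all genes. Of the 36 members in state 1 or 2 in SD 12m, 7 were in another class in CR 12m (19.4%, against 17.1% of 9052 genes). These were Hgd, Agxt, Fah, Amt, Gcsh, Dbt and Ivd, all 7 with a stretch that began 1 bin downstream of the TSS bin. Over all genes, 860 of the 1548 TSS bins that left these states had such a stretch. A stretch within 1 kb was found at 78.1%.

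**Figure D1:**
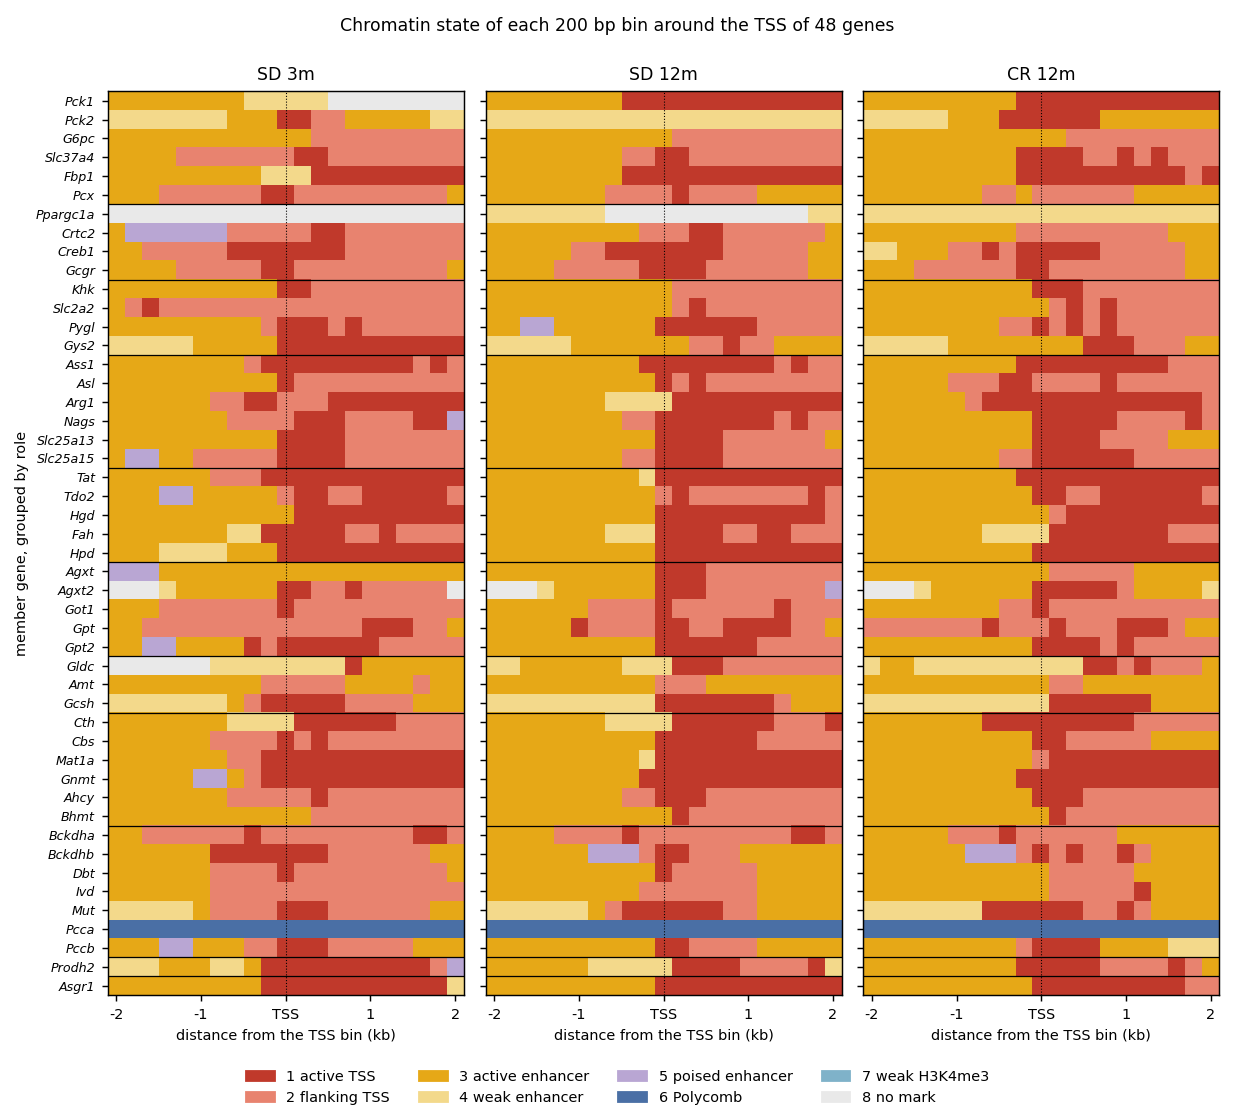
Chromatin state of each 200 bp bin (colour) from 2 kb upstream to 2 kb downstream of the TSS bin, in the direction of the gene, for the 48 members (rows, grouped by role) in SD 3m, SD 12m and CR 12m. States 1 and 2 fill the right side of most rows in all groups, Pck1 shows state 8 there in SD 3m alone, and Pcca is in state 6 throughout.

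Among the 38 members with the TSS bin in state 1 or 2 in SD 3m, the bin 1000 bp upstream was in these states in 23.7%, 10.5% and 13.2%. The bin 1000 bp downstream was in these states in 94.7%, 92.1% and 89.5% of the same members, and the bin 1600 bp downstream in 92.1%, 73.7% and 63.2%. Among the 10449 genes chosen in the same way from all genes, the values were 52.1%, 25% and 20.9% at 1000 bp upstream, 83.2%, 59.2% and 52.4% at 1000 bp downstream and 62.3%, 25.5% and 21.3% at 1600 bp downstream. The 3 distances were chosen after the values were seen. Both sets were chosen on SD 3m, which sets the TSS bin itself to 100% in that group.

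**Figure D2:**
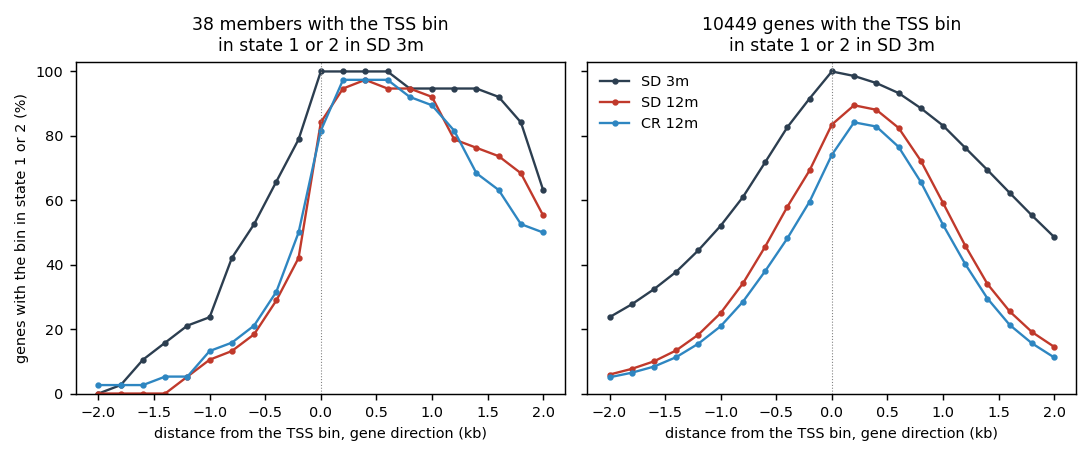
Share of genes (%) with the bin in state 1 or 2 by distance from the TSS bin (kb, gene direction), for 38 members and for 10449 genes, both with the TSS bin in state 1 or 2 in SD 3m. Lines are the 3 groups; the 12-month lines lie under SD 3m on both sides of the TSS in the right panel, whereas in the left panel the 3 lines lie close together from the bins just past the TSS to 1 kb downstream.

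The unbroken stretch of states 1 and 2 at the TSS was shorter on both sides at 12 months. In 37 members with the TSS bin in state 1 or 2 in SD 3m and a stretch in all groups, its upstream end lay a median of 600 bp from the TSS bin at 3 months and 0 bp in both 12-month groups. The downstream end lay at a median of 2600 bp, 2200 bp and 2000 bp. In the 9490 genes that met the same conditions, the upstream medians were 1000, 400 and 400 bp and the downstream medians 2000, 1000 and 1000 bp. The upstream end was nearer to the TSS in SD 12m in 31 of 37 members (83.8%, against 80.2% of those genes), and in CR 12m in 26 (70.3%, against 86.4%). The downstream end was nearer in 23 members in SD 12m (62.2%, against 84.6%) and in 24 in CR 12m (64.9%, against 88.3%). It was farther away in 9 members in SD 12m (24.3%, against 5.76%) and in 10 in CR 12m (27%, against 4.98%), among them Ass1, Got1 and Tat in both.

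Counted in bins, 32 of the 38 members had fewer window bins in states 1 and 2 in SD 12m than in SD 3m (84.2%, against 90.7% of the 10449 genes) and none had more (against 3.72%). In CR 12m, 27 had fewer (71.1%, against 94.5%) and 4 had more (10.5%, against 2.17%). The 4 were Pck2, Pygl, Asl and Gpt. As the 38 were chosen for a TSS state in SD 3m, the other 10 members are given too. Of these, 7 had more such bins in SD 12m, 6 in CR 12m and 0 had fewer. Counts for all genes without a TSS state in SD 3m are not given, so these are not read as a trait of the members. Over all 48 members, states 1 and 2 took a median of 57.1%, 52.4% and 50% of the window. Of the 339 window bins that carried state 2 in SD 3m in the members, 26.3% carried state 3 in SD 12m and 32.2% in CR 12m, against 41.8% and 48.7% in the 10449 genes.

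**Figure D3:**
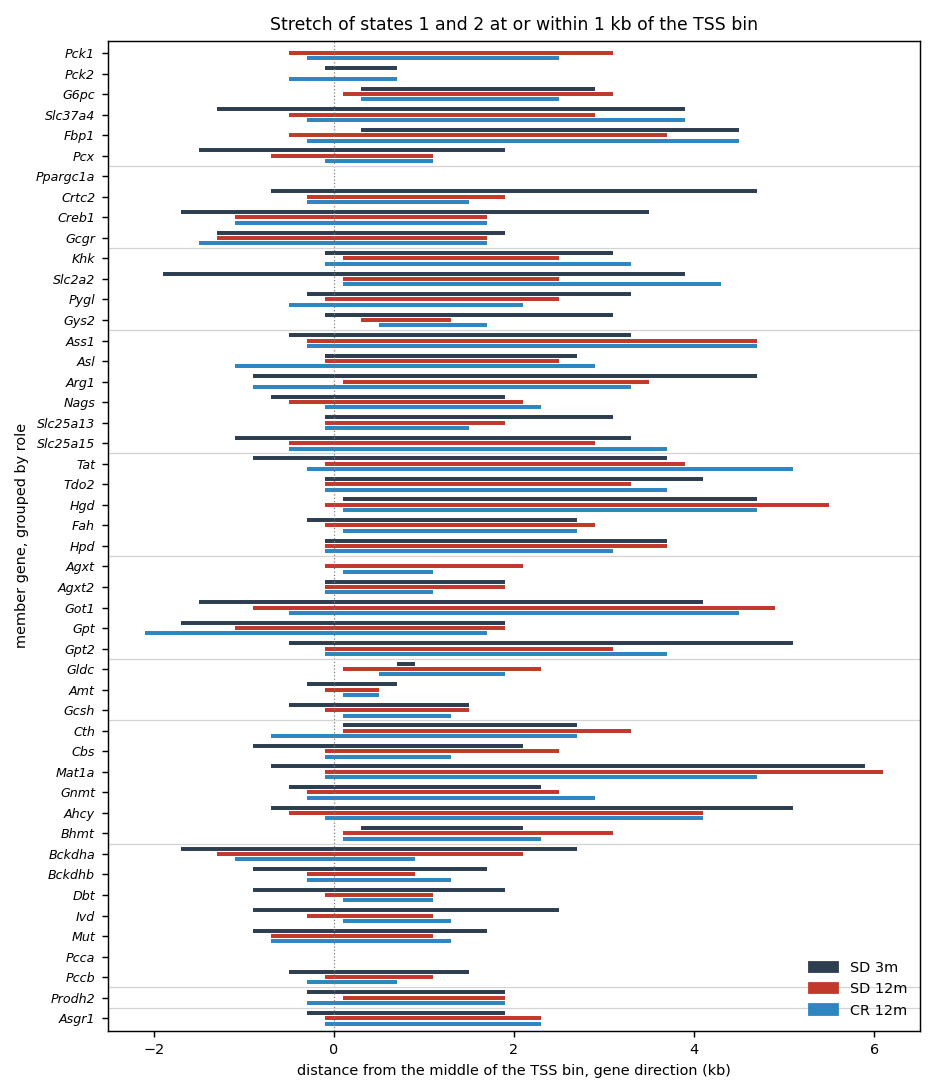
Extent of the stretch of states 1 and 2 found at the TSS bin or within 1 kb of it (kb from the middle of the TSS bin, gene direction) for each member, with 1 bar per group. Bars reach farther to the right than to the left in most members, while Pck1 and Agxt have no SD 3m bar, Pck2 no SD 12m bar, and Pcca and Ppargc1a none.

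Of the enzymes that make and release glucose, Pck1 had the most window bins in another state than in SD 3m, at 13 in each 12-month group. Between the 12-month groups 1 bin of Pck1 differed, against 16 of Pck2. Pck1 encodes the cytosolic phosphoenolpyruvate carboxykinase, a rate-controlling enzyme of gluconeogenesis, and lies at chr2:173153073-173159274. In SD 3m its window held 8 bins of state 3, 5 of state 4 and 8 of state 8, with no bin in state 1 or 2. In SD 12m it held 13 bins of state 1 and 8 of state 3, and in CR 12m 12 bins of state 1 and 9 of state 3. Among all 26089 genes, Pck1 alone had no window bin in states 1 and 2 in SD 3m and at least 10 in both 12-month groups (0.00383%). With at least 5 bins in both, 11 genes met the condition (0.0422%), of which Pck1 and Agxt are members.

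The gap at Pck1 in SD 3m covered the gene and ended beyond it. State 8 ran from 600 bp to 6000 bp downstream of the TSS bin and again from 7000 bp to 10200 bp, with state 5 between, while the gene is 6.20 kb long. Of the 80 bins within 16 kb upstream, none was in state 8 in SD 3m, and within 16 kb downstream 45 were. At 12 months no bin within 16 kb on either side was in state 8 under either diet. The gene body was 87.5% in state 8 in SD 3m, whereas in SD 12m state 1 and state 4 took 50% each, and in CR 12m state 1 took 40.6%, state 3 46.9% and state 4 12.5%. Of all genes, 131 had at least 80% of the body in states 6 to 8 in SD 3m and none of it there in both 12-month groups (0.502%), and Pck1 was the only member among them.

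**Figure D4:**
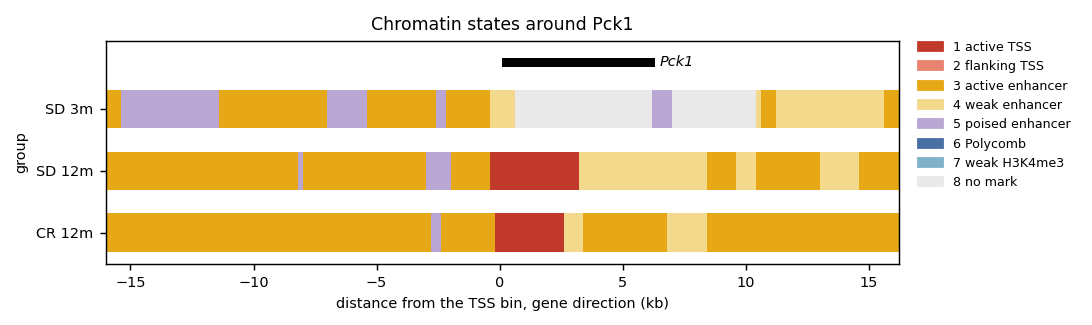
Chromatin states (colour) from 16 kb upstream to 16 kb downstream of the Pck1 TSS bin (kb, gene direction) in the 3 groups, with the extent of the gene as a black bar. State 8 covers 45 of 80 bins downstream in SD 3m and none in SD 12m and CR 12m. In both 12-month groups state 1 begins upstream of the TSS bin and runs past it.

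Pck2, the mitochondrial form of the enzyme (chr14:55540266-55550020), had no TSS state in SD 12m. Its window had 4, 0 and 6 bins in states 1 and 2. In SD 12m all 21 window bins and 100% of the gene body were in state 4, against 82.0% of the body in SD 3m and 76.0% in CR 12m. Both phosphoenolpyruvate carboxykinase genes were thus without a TSS state in 1 group each, SD 3m for Pck1 and SD 12m for Pck2.

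G6pc, the catalytic subunit of glucose-6-phosphatase (chr11:101367716-101377903), was among the members that differed least. Its TSS bin was in state 3 in all groups, and state 2 began 400, 200 and 400 bp downstream and filled 9, 10 and 9 window bins. A single window bin was in another state in SD 12m and none in CR 12m. Slc37a4, which carries glucose-6-phosphate into the endoplasmic reticulum, had 17, 13 and 12 window bins in states 1 and 2. Fbp1, fructose-1,6-bisphosphatase, had its TSS bin in state 4 in SD 3m and in state 1 in both 12-month groups, with 9, 13 and 12 bins. Pcx, pyruvate carboxylase (chr19:4510472-4621752), had 17, 9 and 8 bins, and its TSS bin was in states 1, 2 and 2. The RefSeq Select start of Pcx, 83847 bp away, was in state 3 in all groups.

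Among the hormone and transcription regulators, the TSS bin of Crtc2, Creb1 and Gcgr kept its state in all groups. Crtc2, the CREB coactivator that fasting sends to the nucleus (chr3:90253858-90264125), had 14, 11 and 9 window bins in states 1 and 2, and 6 upstream bins in state 5 in SD 3m that were in state 3 at 12 months. Creb1, which binds cAMP response elements, had 19, 14 and 14 bins, and Gcgr, the glucagon receptor, 16, 15 and 16. Ppargc1a, a coactivator induced in fasting (chr5:51454249-51567725), had 21 window bins of state 8 at the non-coding start in SD 3m, 12 of state 8 and 9 of state 4 in SD 12m, and 21 of state 4 in CR 12m. At the start of its coding transcript the TSS bin was in state 2, 2 and 3, with 12, 11 and 9 window bins in states 1 and 2. The share of the Ppargc1a body in state 8 was 46.3%, 40.5% and 8.10%.

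The genes for sugar uptake and glycogen are Slc2a2, Khk, Pygl and Gys2, and all had the TSS bin in state 1 or 2 in SD 3m. Slc2a2, the glucose transporter GLUT2 of hepatocytes (chr3:28697903-28728361), had 20, 10 and 10 window bins in states 1 and 2. On its upstream side 9 of these bins were present in SD 3m and 0 at 12 months under both diets, whereas all 10 downstream bins were in these states in all groups. The border at Slc2a2 therefore lay at the TSS at 12 months. Gys2, the liver glycogen synthase, had 11, 5 and 6 bins and its TSS bin was in states 1, 3 and 3. Pygl, the liver glycogen phosphorylase, was in state 1 with 12, 11 and 13 bins, and Khk, the fructose-phosphorylating ketohexokinase, was in states 1, 3 and 1 with 11, 10 and 11 bins.

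The 6 urea cycle genes had a median of 13.0, 11.5 and 12.5 window bins in states 1 and 2. Ass1, argininosuccinate synthase (chr2:31470270-31520670), was in state 1 with 13, 12 and 12 window bins in states 1 and 2. State 5 took 83.4%, 56.5% and 5.14% of the gene body of Ass1, and the share in state 3 was 1.19%, 23.3% and 70.0%. Its body thus differed from SD 3m in 32.4% of bins in SD 12m and in 86.6% in CR 12m, whereas the window did so in 4 and 2 of 21 bins. Arg1, arginase, which splits off urea (chr10:24915207-24927470), had the TSS bin in states 2, 4 and 1, with 15, 10 and 15 bins in states 1 and 2. All the Arg1 bins missing in SD 12m were upstream or at the TSS, as the 10 downstream bins were in these states in all groups.

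Asl, argininosuccinate lyase, had 11, 11 and 16 window bins in states 1 and 2, with the TSS bin in states 1, 1 and 2. Nags, which makes the activator of the cycle's first enzyme, had 13, 13 and 11 and its TSS bin in states 2, 1 and 1. The mitochondrial carriers Slc25a13 (aspartate and glutamate) and Slc25a15 (ornithine) were in state 1 in all groups, with 11, 10 and 8 bins and 16, 13 and 13 bins.

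Of the tyrosine and tryptophan genes, Tat and Hpd were in state 1 in all groups. Tat, tyrosine aminotransferase (chr8:109990436-109999804), had 15, 11 and 12 window bins in states 1 and 2. Its 10 downstream bins were in these states in all groups, and of the upstream bins 4, 0 and 1 were. Hpd, the next enzyme of tyrosine breakdown, had 11 bins in each group. Hgd, homogentisate dioxygenase, and Fah, fumarylacetoacetase, act further down. Hgd had 10, 11 and 10 bins with the TSS bin in states 3, 1 and 3, and Fah 12, 11 and 10 bins with the TSS bin in states 1, 1 and 4, so that the border lay within 1 bin of the TSS bin in all groups. Tdo2, which opens the ring of tryptophan, had 11 bins in each group with the TSS bin in states 2, 2 and 1.

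Of the transaminases, Agxt, the peroxisomal enzyme that removes glyoxylate (chr1:93135240-93145421), had no window bin in states 1 and 2 in SD 3m, where 18 bins were in state 3 and 3 in state 5. It had 11 in SD 12m, namely the TSS bin and all 10 downstream of it, and 5 in CR 12m, all downstream. State 5 took 57.7%, 15.4% and 0% of its body. Agxt2, a mitochondrial enzyme, was in state 1 with 10, 10 and 6 bins, and Got1, the cytosolic aspartate transaminase, in state 1 with 18, 15 and 13. The alanine transaminases Gpt and Gpt2 were in states 2, 1 and 2 and in state 1, with 18, 15 and 19 bins and 13, 11 and 11.

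The 3 glycine cleavage genes among the members all had the TSS bin in enhancer states in CR 12m. Gldc, the glycine-binding P protein (chr19:30098441-30175441), was in state 4 at the TSS in all groups, with 1, 10 and 7 window bins in states 1 and 2, none of them upstream. Its window had 6 bins of state 8 in SD 3m and none at 12 months. State 3 took 25.4%, 80.8% and 75.4% of the Gldc body, and state 5 40.2%, 2.07% and 0%. Amt, the T protein, was in states 2, 2 and 3 with 6, 3 and 2 bins, and Gcsh, the H protein, in states 1, 1 and 4 with 10, 8 and 6.

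In methionine metabolism, Mat1a, which makes S-adenosylmethionine, Gnmt, which uses it to methylate glycine, and Ahcy, which splits the product, had 14, 11 and 11, 13, 12 and 12, and 14, 13 and 11 window bins in states 1 and 2. Their TSS bins were in states 1, 1 and 2, in state 1 throughout, and in states 2, 1 and 1. Cbs, cystathionine beta-synthase, the entry to transsulfuration (chr17:31612623-31637205), was in state 1 with 15, 11 and 7 bins, of which 4, 0 and 0 were upstream and 10, 10 and 6 downstream. Cth, the next enzyme, was in states 4, 4 and 1 with 10, 10 and 14. Bhmt, which remethylates homocysteine with betaine (chr13:93616891-93637758), was in state 3 at the TSS with 9, 10 and 10 bins, all downstream as in G6pc. A single Bhmt window bin was in another state than in SD 3m in each 12-month group.

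The 7 branched chain and propionate genes had a median of 13.0 window bins in states 1 and 2 at 3 months and of 6.00 in both 12-month groups. This was the largest difference among the role groups of members, with Pcca counted at its non-coding start, which had no such bin. Over the 10449 genes with the TSS bin in state 1 or 2 in SD 3m, the median change was -5.00 bins in SD 12m and -6.00 in CR 12m. Bckdha, Bckdhb and Dbt, subunits of the branched chain ketoacid dehydrogenase, had 19, 17 and 10, 13, 6 and 8, and 14, 6 and 5 bins, and Ivd, isovaleryl-CoA dehydrogenase, 15, 7 and 6. The TSS bin of Bckdha was in state 2 and that of Bckdhb in state 1 in all groups, whereas Dbt was in states 1, 1 and 3 and Ivd in states 2, 2 and 3. Mut, methylmalonyl-CoA mutase, and Pccb, a subunit of propionyl-CoA carboxylase, were in state 1 with 13, 9 and 10 and with 10, 6 and 5 bins. Pcca, the other subunit (chr14:122484365-122889944), had state 6 in all 21 bins at the non-coding start in all groups. At the start of its coding transcript the TSS bin was in states 1, 1 and 3, with 13, 7 and 8 bins.

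Prodh2, hydroxyproline dehydrogenase (chr7:30493658-30513402), was in states 1, 4 and 1 at the TSS, with 11, 9 and 11 window bins in states 1 and 2. Its body was 28.0% in state 8 in SD 3m and 0% at 12 months, and its share in state 5 was 17.0%, 33.0% and 0%. Asgr1 was in state 1 with 11 bins in each group.

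Along the gene body, enhancer states took more of the members at 12 months. States 3 to 5 took a median of 66.4%, 78.7% and 82.8% of the body, and in the 10449 genes with the TSS bin in state 1 or 2 in SD 3m 64.3%, 77.7% and 82.6%. Every bin of the body was in states 1 to 5 in 24 members in SD 3m (50%, against 29.7% of all genes), 32 in SD 12m (66.7%, against 34.1%) and 40 in CR 12m (83.3%, against 37.1%). The 8 members with a bin in states 6 to 8 in CR 12m were Ppargc1a, Creb1, Gys2, Slc25a13, Bckdhb, Mut, Pcca and Pccb. Dbt had 32.4%, 31.9% and 0% of its body in these states, and Agxt2 20.5%, 14.3% and 0%. The mean share of the members' bodies in state 8, without any of the 4 marks, was 15.7%, 9.43% and 6.34%, against 19.2%, 18.6% and 17.1% in the 10449 genes. This share was lower in 20 members in SD 12m than in SD 3m and in 22 in CR 12m, and 24 had no state 8 in either comparison. It was higher in Creb1 (7.80%, 9.19% and 12.3%) and Mut (66.4%, 72.3% and 70.8%) in both and in Pcca and Pccb in SD 12m alone. The counts of genes with a lower or higher share are not given over all genes, so they are not read as a trait of the members. The median share of the body in another state was 25.6% for SD 12m against SD 3m, 34.8% for CR 12m against SD 3m and 25% for CR 12m against SD 12m. In 67 further genes of the pathways it was 21.4%, 26.3% and 13.3% for the same comparisons.

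Within the enhancer states, state 5 took less of the members under CR than under SD at 12 months. The mean share of the body in state 5 was 15%, 11.4% and 2.79%, and in state 3 it was 32.5%, 43.0% and 52.9%. In the 10449 genes the mean share in state 5 was 11%, 5.39% and 3.23%. State 5 took at least 25% of the body of 12 members in SD 3m (25%, against 14.2% of all genes), 7 in SD 12m (14.6%, against 4.88%) and 1 in CR 12m (2.08%, against 3.32%). The 7 in SD 12m were Creb1, Ass1, Tdo2, Hgd, Fah, Cth and Prodh2, and Creb1 was the 1 left in CR 12m. All of the 7 but Ass1 had more state 5 at 12 months under SD than at 3 months, at 56.2% against 33.3% for Fah. Some members under 25% had more of it too, among them Arg1, Mat1a, Pcca and Bckdhb.

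**Figure D5:**
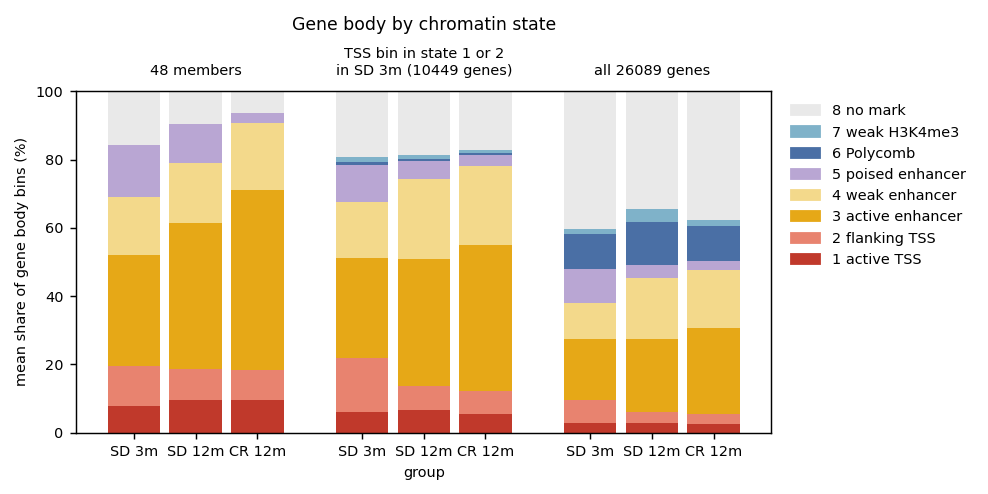
Mean share of gene body bins (%) in each state (colour) for the 48 members, for 10449 genes with the TSS bin in state 1 or 2 in SD 3m and for all 26089 genes, in the 3 groups. State 3 takes 32.5%, 43.0% and 52.9% of the bodies of members and state 5 15%, 11.4% and 2.79%.

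Gene length and promoter sequence were not used to choose the genes. The median length of the 48 members was 20.9 kb (2.95 to 406 kb), compared with 13.5 kb over all genes. Among those with the TSS bin in state 1 or 2 in SD 3m, it was 20.3 kb in members and 19.2 kb in all genes. Of the members, 39 had their TSS in the promoter table, which spans 300 bases from 250 before to 50 after the TSS. The ratio of observed to expected CpG had a median of 0.523 in these 39 and of 0.555 in 19069 genes matched in the same way. Among those with the TSS bin in state 1 or 2 in SD 3m it was 0.592 in 30 members and 0.802 in 8180 genes, and it reached 0.6 in 50% of these members and 80% of these genes.

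Members whose TSS bin was in state 1 or 2 in all groups had the CpG-richer promoters. The median ratio was 0.616 in these 22 members and 0.313 in the 17 that had another class in any group. The 17 include the non-coding starts of Ppargc1a and Pcca, and G6pc, Bhmt and Gldc, in states 3 to 5 in all groups. Over all genes, by the SD 3m TSS bin alone, the median was 0.802 in state 1 or 2 and 0.337 in states 3 to 5. In states 6 to 8 it was 0.246, and the contrast is thus not read as a trait of the members. The lowest ratios belonged to Slc2a2 (0.121), Agxt (0.136) and Hgd (0.162), all with a TSS bin that left or entered the TSS states, and the highest to Pccb (0.933), Gcgr (0.884) and Creb1 (0.876), all in state 1 in all groups. Tat (0.243) and Hpd (0.253) had low ratios and state 1 in all groups, and Fah (0.787) and Gcsh (0.774) had high ones and left it in CR 12m. Exact letters of 5 motifs were searched on both strands of the 300 bases. TATAAA was found in 4 of 39 members (G6pc, Tdo2, Hgd and Agxt2, 10.3%, against 13.1% of all promoters) and the HNF4 motif CAAAGTCCA in 1 (Agxt2, 2.56%, against 0.446%). The cAMP response element TGACGTCA (2.32% of all promoters), the forkhead motif GTAAACA (2.99%) and the C/EBP motif TTGCGCAA (0.231%) were found in 0 members. An exact search misses variants, so 0 matches do not mean that a site is absent. The printed Pck1 promoter holds TTACGTCA, which differs from TGACGTCA in 1 letter. No matches of different motifs overlapped in a member.

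Another 67 genes of the same pathways, were all found in the annotation. Their TSS bin was in state 1 or 2 in 47, 44 and 38 genes (70.1%, 65.7% and 56.7%, against 40.1%, 34.7% and 30.7% of all genes). It was in another state than in SD 3m in 14 genes in SD 12m (20.9%, against 32.6% of all genes) and in 21 in CR 12m (31.3%, against 34.7%). The 33 of them that act in amino acid breakdown had 25, 25 and 18 in state 1 or 2 (75.8%, 75.8% and 54.5%). Sds, serine dehydratase, which feeds serine into gluconeogenesis, was in states 8, 1 and 3 at the TSS with 0, 8 and 4 window bins in states 1 and 2, the order seen in Agxt. Oat, ornithine aminotransferase, was in states 1, 4 and 4 with 8, 4 and 1 bins.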

How the data were processed

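ChIP-seq of 4 histone marks was analysed in livers of 3 groups, and SD 6m was not analysed here. Per the submitters' processing notes, the authors used BWA 0.6.2-r126 and SAMtools 0.1.18 with the build mm10. They merged the libraries of each group and segmented the genome with ChromHMM. The deposited value of a 200 bp bin is a state label from 1 to 8, not a signal, a count or a score, and its read depth is unknown.

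Each gene's TSS and body are those of its longest curated transcript in RefSeq on GRCm38.p6, whose 20 chromosome lengths match the deposited bins. States were read in Python 3.11.15 with numpy 2.4.6, pandas 2.3.3 and scipy 1.17.1, and drawn with matplotlib 3.10.9. The functions were tested on simulated segmentations. No test was made, since each group has 1 segmentation of merged libraries; counts stand beside those over all genes. The members and lists were chosen with earlier results of these data known. Every member is named. Full values are given for the 10 members with the most and the 3 with the fewest window bins in another state than in SD 3m, for those with the TSS bin in states 6 to 8, and for Pck1, G6pc, Arg1, Ass1, Tat and Cbs. Oat, Sds and the other examples were chosen after their values were seen, as were the limits of 5 and 10 bins, 25% and 80%. Alternatives were another TSS, smoothing over the neighbouring bins, 5 merged classes, other windows, gene bodies without the first 2 kb, and leaving out Asgr1.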

Additional observations from a re-analysis of the deposited data

How the results depend on the processing

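Of 105 values recomputed under other settings of the processing, 87 stayed within a set limit and 18 moved. The limit was 1.5 times the reported count, or the Wilson 95% interval of the reported share taken over 48 members. As a median share of bins is not a share of genes, this interval is a working limit and measures no spread. Leaving out Asgr1, the most 5-prime transcript (the same TSS for every member) and the most frequent state of the TSS bin and its neighbours moved none. With states merged into 5 classes, 11 members had a changed TSS bin in CR 12m against SD 3m, the median share of the window with another state was 14.3% for CR 12m against SD 3m and 4.76% for CR 12m against SD 12m, and that of the gene body was 10.6%, 11.9% and 5.83% for SD 12m against SD 3m, CR 12m against SD 3m and CR 12m against SD 12m, fewer by construction. With a window of 1 kb on each side, states 1 and 2 took a median of 72.7% in SD 3m. With 5 kb they took 33.3%, 27.5% and 24.5% in SD 3m, SD 12m and CR 12m, and states 3 to 5 took 58.8%, 70.6% and 71.6%, as a wider window reaches farther from the TSS. Without the first 2 kb, states 1 and 2 took 3.85%, 2.92% and 2.04% of the gene body, and states 3 to 5 took 90.7% in SD 12m and 91.6% in CR 12m.

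At the RefSeq Select transcript, an alternative chosen after seeing the data that gives Slc37a4, Pcx, Ppargc1a, Pcca and Asgr1 another TSS, 0 members had the TSS bin in states 6 to 8 in each group, 39, 37 and 33 had it in state 1 or 2, and 13, 19 and 19 had it in another state in the 3 comparisons. Of 45 values recomputed under the alternatives chosen after seeing the data, 42 stayed within the same limits. No paired analysis was possible because each group is 1 segmentation of merged libraries. A state label holds no depth, so a mark just under the authors' threshold and no mark cannot be told apart, and single libraries could not be left out.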
